A study of Mus musculus with 9 samples.

Results

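The transcripts of 10 genes of the Notch pathway were followed in bulk RNA sequencing of whole mouse retinas. They were taken by symbol from the deposited count table and fall into the receptors Notch1, Notch2 and Notch3, the ligands Jag1, Dll1 and Dll4, and the transcriptional repressors Hes1, Hes5, Hey1 and Heyl. All 10 were found among the 47729 gene identifiers of the table, and all 10 passed the filter on low counts in each comparison. The retinas were of 3 groups with 3 libraries each, all on a C57Bl6/J background. The Yap CKO group (Yapflox/flox; Rax-CreERT2) carried floxed Yap and a tamoxifen-dependent Cre driven from Rax, which acts in Müller glia, and was taken at P60. The control group carried the same floxed Yap without the Cre and was also taken at P60. Both P60 groups had been given 4-hydroxytamoxifen at P10, and each of their libraries came from 1 frozen retina. The C57 group was wild type, was taken at P30 and consists of re-analysed samples of an earlier series. All P60 library names carry the letters MNU, the usual abbreviation of N-methyl-N-nitrosourea, a photoreceptor toxicant, but the labels describe no such treatment, dose or time. The control genotype label itself reads Yap CKO without Cre, and these retinas were treated as controls because the design text says so. Replicates are separate retinas, and nothing in the labels says that each came from a different animal.

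In Notch signalling a ligand on one cell binds a receptor on its neighbour, and proteases then release the intracellular part of the receptor. That fragment enters the nucleus, joins the DNA-binding protein RBPJ and switches on targets such as the Hes and Hey genes, whose proteins repress proneural genes. In the mouse retina the pathway keeps progenitors undifferentiated and takes part in the formation of Müller glia, and Hes1 and Hes5 are known for favouring the glial fate. Jagged and Delta ligands with Notch1, Notch3, Dll4 and the Hey genes also act in blood vessels, so a whole-retina level sums several cell types. In such bulk samples, fewer cells of a type and less RNA per cell cannot be told apart.

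Hes5 and Nrarp are textbook direct targets of the pathway, and both were lower at P60 than in C57, so their promoters are shown as RefSeq gives them for GRCm38.p6 (250 bases before to 50 after the annotated start, both on the plus strand). Capitals mark matches to the RBPJ motif GTGGGAA on either strand. The Hes5 window is chr4:154960673-154960972 and the Nrarp window is chr2:25180508-25180807.
Hes5: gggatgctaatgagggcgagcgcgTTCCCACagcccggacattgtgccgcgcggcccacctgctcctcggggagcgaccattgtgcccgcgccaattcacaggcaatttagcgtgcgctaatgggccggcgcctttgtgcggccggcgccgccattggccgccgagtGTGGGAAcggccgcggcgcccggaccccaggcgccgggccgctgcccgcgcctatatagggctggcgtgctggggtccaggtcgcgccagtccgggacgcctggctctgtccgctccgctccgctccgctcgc
Nrarp: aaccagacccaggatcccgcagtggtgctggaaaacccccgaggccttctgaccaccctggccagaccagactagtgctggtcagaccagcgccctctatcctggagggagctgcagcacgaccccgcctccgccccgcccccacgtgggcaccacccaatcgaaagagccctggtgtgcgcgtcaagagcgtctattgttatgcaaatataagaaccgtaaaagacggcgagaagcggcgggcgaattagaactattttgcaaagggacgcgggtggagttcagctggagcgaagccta
The Hes5 window held 2 matches, 1 on the minus strand starting at -226 and 1 on the plus strand starting at -83 from the start site. The motif occurred at least once in 6.387% of 32817 promoters of this length and 2 or more times in 0.256% of them. No match was found in the Nrarp window, which says only that these letters are not in these 300 bases. RefSeq promoters were matched for 7 of the 10 members (not for Hes1, Hey1 and Heyl), and Hes5 was the only one of the 7 with a match. The N-box CACNAG, a letter pattern bound by Hes proteins, was searched on both strands and occurred in 42.49% of all promoters, 2 times in the Nrarp window and not in the Hes5 window.

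Total counts were 34739679 to 37629264 in the P60 libraries and 13760765 to 16808499 in C57, and levels are given as CPM (counts per 1000000 counts of the library), scaled over all 9 libraries. Yap1, the gene targeted by the deletion, had 15.3, 21.5 and 24.3 CPM in Yap CKO libraries 1 to 3, against 67.4, 61.0 and 57.6 CPM in control 1 to 3 and 23.4, 25.1 and 30.4 CPM in C57. The summed level of 20 rod photoreceptor markers was 2030 to 28305 CPM in Yap CKO, 5698 to 26847 CPM in control and 126202 to 146686 CPM in C57. For 18 Müller glia markers, of which none was at 0 in any library, the sums were 4997 to 6553 CPM in Yap CKO, 5500 to 6037 CPM in control and 8643 to 9281 CPM in C57. Of those 18 markers, 4 rose and 10 fell in control against C57. Endothelial markers summed to 540 to 878 CPM in Yap CKO, 597 to 618 CPM in control and 574 to 652 CPM in C57. Yap CKO 3 had the lowest rod level and carried lens transcripts, with a summed lens level of 1350 CPM against at most 35.4 CPM in any other library. By Xist and Y-linked transcripts, Yap CKO 1 and 2 were female and Yap CKO 3 male, all controls were male, and C57 held 2 females and 1 male.

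Levels between genes can be set side by side only per length, here as CPM per kilobase of merged exons. This length counts every annotated exon of a gene, 14232 bases in 40 merged exons for Notch1, whether or not the retina uses it. The order below can change with another choice of length, which was not tried. In Yap CKO retinas Hes1 was highest at 8.37 ± 2.80 CPM per kb (SD, n = 3), followed by Hey1 at 5.27, Notch1 at 4.64, Jag1 at 4.09, Notch2 at 2.01, Dll1 at 1.99, Hes5 at 1.21, Notch3 at 0.855, Dll4 at 0.645 and Heyl at 0.363. In controls the order was Hes1 (8.96 ± 0.949 CPM per kb, SD, n = 3), Notch1 (5.76), Hey1 (4.62), Jag1 (3.11), Dll1 (2.78), Notch2 (2.65), Hes5 (0.911), Notch3 (0.787), Dll4 (0.579) and Heyl (0.303). In C57 Jag1 led with 11.4 ± 2.08 CPM per kb (SD, n = 3), ahead of Hes1 at 6.95, Hey1 at 5.11, Hes5 at 2.29, Notch2 at 2.03, Notch1 at 1.54, Dll1 at 1.28, Notch3 at 0.699, Heyl at 0.568 and Dll4 at 0.270. Hes1 held the first place in both P60 groups and Jag1 in C57, and Notch1 held the third place in Yap CKO, the second in control and the sixth in C57. In the control order the libraries of Hes1, Notch1, Hey1 and Jag1 did not overlap from one gene to the next. Neighbours with overlapping libraries were Jag1, Dll1 and Notch2 and then Hes5, Notch3 and Dll4 in control. In Yap CKO they were Hey1 down to Dll1 and Hes5 down to Dll4, and in C57 Hes5 down to Dll1 and Notch3 down to Dll4.

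**Figure D1:**
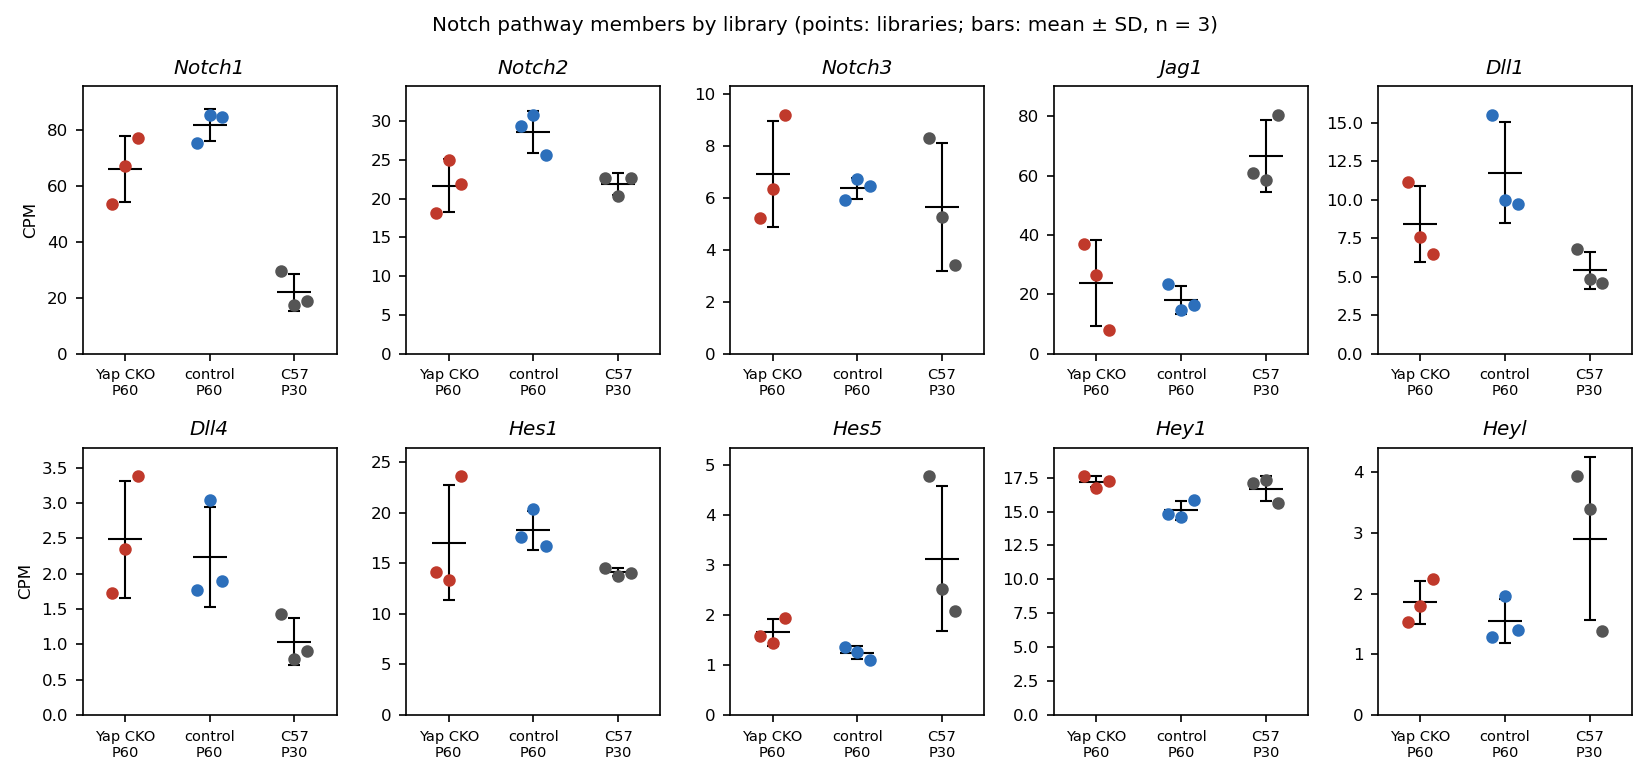
Level of each gene in CPM (vertical axis, from 0) in the 3 libraries of Yap CKO, control and C57 (points), with the mean and SD as bars. Notch1 lies at 53.6 to 85.6 CPM in the P60 libraries and at 17.4 to 29.4 CPM in C57, while Jag1 runs the other way with all P60 libraries at or below 36.9 CPM and all C57 libraries at or above 58.6 CPM.

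The comparison of Yap CKO with control asks which of these genes differed between P60 retinas with and without the Cre. None of the 10 passed edgeR's quasi-likelihood test at an adjusted p of 0.05, where 0.200% of the 16539 genes tested did. At an unadjusted p under 0.05 there were 2 of the 10 (Notch2 and Hey1), against 17.8% of all genes. DESeq2 and limma-voom also called 0 of the 10. The median log2 fold change of the 10 genes was 0.14, and that of all genes tested was 0.011. Libraries of the groups did not overlap for 3 of the 10 genes, with Notch2 lower and Hes5 and Hey1 higher in Yap CKO. Of all genes 25.1% did not overlap, 13.0% higher and 12.1% lower.

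Among the receptors, Notch2 (chromosome 3, 98013527 to 98150361, plus strand; positions are GRCm38 from GENCODE M21) had 18.1, 24.95 and 21.9 CPM in Yap CKO, against 29.4, 30.8 and 25.6 CPM in control. Every Yap CKO library was below every control, with a log2 fold change of -0.40 (SE 0.130, edgeR adjusted p = 0.179). Notch1 (chromosome 2, 26457903 to 26516663, minus strand) had 53.6, 67.3 and 77.3 CPM in Yap CKO and 75.4, 85.6 and 84.7 CPM in control. The groups overlapped through Yap CKO 3 and control 1, and the log2 fold change was -0.31 (SE 0.134, edgeR adjusted p = 0.285). With the rod marker level as a covariate, an alternative chosen after seeing the data, the value for Notch1 was -0.37 with an edgeR adjusted p of 0.0210, in a fit that called 1650 genes in all. Notch3, a receptor known from vascular smooth muscle and pericytes (chromosome 17, 32120820 to 32166852, minus strand), had 5.22, 6.32 and 9.20 CPM in Yap CKO against 5.93, 6.71 and 6.46 CPM in control, and only Yap CKO 3 stood above the controls.

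Jag1 (chromosome 2, 137081456 to 137116644, minus strand), a Jagged ligand, was the most uneven gene of the set in Yap CKO. It had 36.9, 26.5 and 8.04 CPM in Yap CKO libraries 1 to 3, against 23.5, 14.7 and 16.3 CPM in control. Yap CKO 1 and 2 lay above all controls and Yap CKO 3 below them, so the log2 fold change of 0.40 had an SE of 0.586 (edgeR adjusted p = 0.792). Its sign depended on single libraries, since without Yap CKO 1 the value was -0.064. In a fit that included sex it was -1.17, which sets Yap CKO 3, the only male of its group, alone against the controls. Dll1 (chromosome 17, 15367354 to 15376872, minus strand), a Delta ligand of neural progenitors, had 11.2, 7.60 and 6.48 CPM in Yap CKO and 15.5, 9.98 and 9.72 CPM in control, with overlap between the groups and a log2 fold change of -0.48 (SE 0.253, edgeR adjusted p = 0.380). Dll4 (chromosome 2, 119325784 to 119335962, plus strand), the Delta ligand of sprouting endothelium, was low in both groups, at 1.73, 2.34 and 3.38 CPM in Yap CKO and 1.76, 3.04 and 1.89 CPM in control.

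Of the repressors, Hes5 (chromosome 4, 154960923 to 154962371, plus strand), whose promoter is printed above, had 1.58, 1.43 and 1.94 CPM in Yap CKO against 1.36, 1.26 and 1.10 CPM in control. All Yap CKO libraries were above all controls by a small margin (log2 fold change 0.41, SE 0.194, edgeR adjusted p = 0.317). Hey1 (chromosome 3, 8663359 to 8667256, minus strand), a Hes-related repressor, had 17.6, 16.8 and 17.3 CPM in Yap CKO and 14.8, 14.6 and 15.9 CPM in control. This was the tightest difference of the set, again without overlap, at a log2 fold change of 0.19 (SE 0.080, edgeR adjusted p = 0.273). Hes1 (chromosome 16, 30064384 to 30067796, plus strand) had 14.1, 13.4 and 23.6 CPM in Yap CKO and 17.7, 20.4 and 16.7 CPM in control. Yap CKO 1 and 2 were below every control and Yap CKO 3 above them, and the log2 fold change of -0.099 had an SE of 0.226. Heyl (chromosome 4, 123233556 to 123249875, plus strand) had 1.53, 1.80 and 2.24 CPM in Yap CKO and 1.28, 1.96 and 1.40 CPM in control, with overlap. In the authors' deposited table of 305 genes none of the 10 was listed. The smallest absolute log2 fold change of Yap CKO over control in it was 0.587. The largest among the 10 genes as fitted here was that of Dll1, at -0.48, so their absence adds nothing to the tests.

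**Figure D2:**
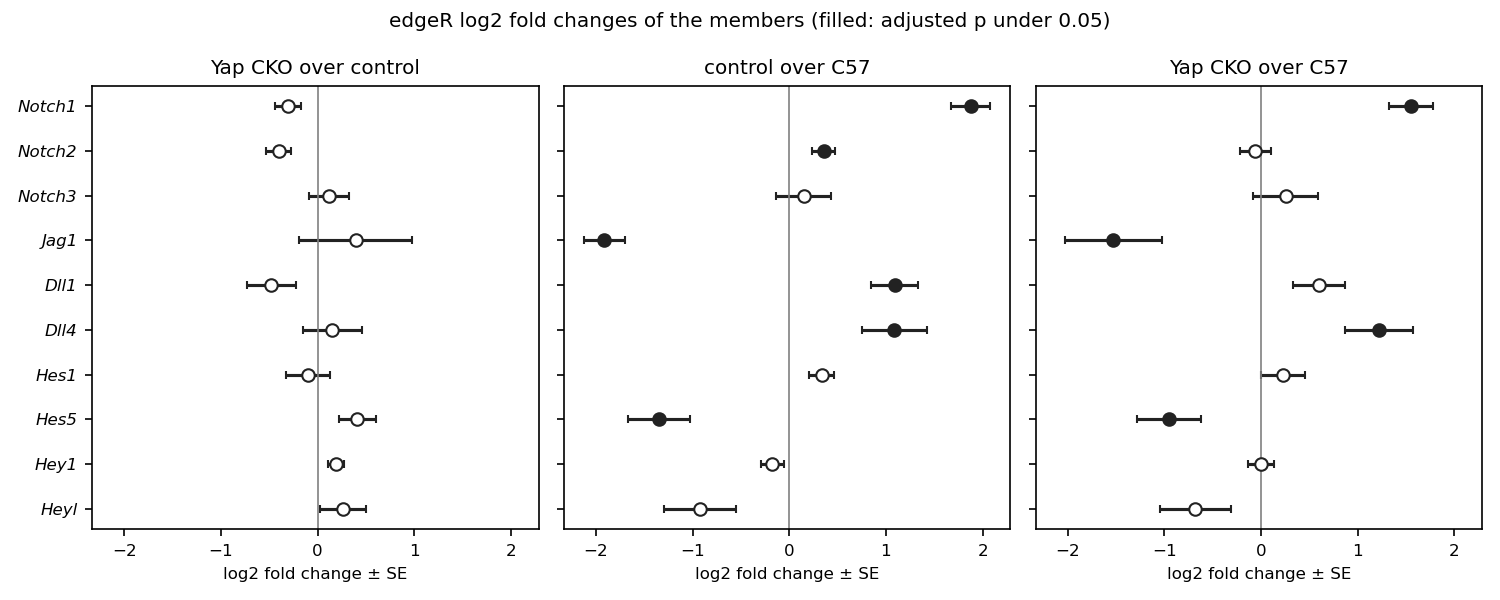
edgeR log2 fold changes of the 10 genes (horizontal axis, bars are the SE) for Yap CKO over control, control over C57 and Yap CKO over C57, with filled points where the adjusted p was under 0.05. No point is filled in the first panel, 6 are filled in the second and 4 in the third, where Notch1 lies at 1.55 and Jag1 at -1.53.

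The comparison of control with C57 sets P60 retinas with floxed Yap against P30 wild-type retinas. The groups also differ in age, tamoxifen, the floxed allele, sequencing depth and the series they come from, and whatever the letters MNU stand for, and these cannot be told apart. Among the 10 genes 4 rose (Notch1, Notch2, Dll1 and Dll4) and 2 fell (Jag1 and Hes5). Of the 15820 genes tested, 45.5% passed, 23.1% higher and 22.4% lower in control. The median log2 fold change of the 10 genes was 0.24, and that of all genes tested was 0.032. The other 4 genes, Notch3, Hes1, Hey1 and Heyl, did not pass. At an unadjusted p under 0.05 there were 8 of the 10, against 53.6% of all genes. Libraries of the groups did not overlap for 5 genes that were higher and 2 that were lower in control, against 32.3% and 26.6% of all genes (58.9% together).

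Notch1 averaged 81.9 ± 5.61 CPM in control and 21.9 ± 6.56 CPM in C57 (SD, n = 3 each), where its libraries were at 29.4, 17.4 and 18.9 CPM. It rose 3.67-fold (log2 fold change 1.88, SE 0.201, edgeR adjusted p = 0.000301), with a wide gap between the groups. Notch2 averaged 28.6 ± 2.69 CPM in control and 21.9 ± 1.41 CPM in C57 (SD, n = 3 each), with 22.7, 20.3 and 22.7 CPM in the C57 libraries. It rose 1.28-fold, without overlap (edgeR adjusted p = 0.0442), but leaving out single libraries gave adjusted p-values up to 0.154. The call was lost without control 1, 2 or 3 in turn, at 0.124, 0.154 and 0.0636, and without C57 2, at 0.152. With all libraries it was also lost with RLE scaling (0.0516), in one fit over all 9 libraries (0.0688) and with the P60 libraries thinned to the C57 depth (0.0734). Notch3 had 8.30, 5.26 and 3.40 CPM in C57, a range that took in all its control libraries.

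Jag1 had 60.8, 58.6 and 80.6 CPM in C57, and its mean was 18.1 ± 4.68 CPM in control against 66.6 ± 12.1 CPM in C57 (SD, n = 3 each). It fell 3.76-fold (log2 fold change -1.91, SE 0.209, edgeR adjusted p = 0.000326), and each control was below each C57 library. Dll1 moved the opposite way, with a mean of 11.7 ± 3.27 CPM in control against libraries of 6.79, 4.83 and 4.58 CPM in C57, a 2.13-fold rise (SE 0.244 on the log2 scale, edgeR adjusted p = 0.00811). Dll4 averaged 2.23 ± 0.705 CPM in control against 1.42, 0.793 and 0.902 CPM in the C57 libraries, a 2.12-fold rise (SE 0.338 on the log2 scale, edgeR adjusted p = 0.0321). Its call was lost when C57 2, the unnumbered C57 library or control 2 was left out, at adjusted p-values of 0.121, 0.0779 and 0.0887. The direction of all 3 ligand calls was the same in every one of these fits.

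Hes5 averaged 1.24 ± 0.129 CPM in control and 3.13 ± 1.45 CPM in C57 (SD, n = 3 each), where C57 1 stood at 4.78 CPM and the other libraries at 2.52 and 2.08 CPM. It fell 2.54-fold without overlap (log2 fold change -1.35, SE 0.321, edgeR adjusted p = 0.0108). Without C57 1 the value was still past the threshold, at -0.92. Hes1, the sister gene of the same family, had 14.6, 13.77 and 14.1 CPM in C57, below every control. Its log2 fold change of 0.34 missed the threshold (SE 0.129, edgeR adjusted p = 0.0652). Hes1 was called higher with the P60 libraries thinned to the C57 depth (edgeR adjusted p = 0.0472) and without C57 1 (0.0481). It was also called without a scaling factor (log2 fold change 0.69, edgeR adjusted p = 0.00417). Leaving out single libraries gave edgeR adjusted p-values up to 0.227, and with the rod level as a covariate its value was -0.043. Hey1 (17.1, 17.3 and 15.6 CPM in C57) and Heyl (3.94, 3.39 and 1.39 CPM in C57) overlapped with control, and their log2 fold changes were -0.18 and -0.92. For Heyl the edgeR adjusted p was 0.0770, and it was called lower by DESeq2 (adjusted p = 0.0421), in one fit over all 9 libraries (adjusted p = 0.0466) and without the unnumbered C57 library (log2 fold change -1.27, adjusted p = 0.00662).

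All controls were male, so with sex as a covariate the comparison set them against C57 2, the only male of its group. The log2 fold changes were then 0.46 for Notch2, 1.24 for Dll1, 1.45 for Dll4 and -1.06 for Hes5. They had the direction of the fit without sex, but 1 C57 library cannot separate sex from other differences between libraries. Adding the rod marker level, chosen after seeing the data, left 0 of the 10 and 223 genes in all. Of the genes called without it, Notch1 was then at 1.65, Dll1 at 2.07, Hes5 at -1.07, Jag1 at -0.98 and Notch2 at 0.19, while Dll4 turned to -0.23. That level does not overlap between the groups (7.21 to 9.31 in control and 11.6 to 11.7 in C57 as mean log2(CPM + 1)). Without a scaling factor the median of all genes rose by 0.35 on the log2 scale, and Hey1 then had a positive value, 0.17. The Notch1 exons overlap 1068 bases of 0610009E02Rik on the opposite strand, which had 0.508 CPM in control and 1.18 CPM in C57. Those of Hes5 overlap 433 bases of Gm20421, at 0.499 CPM in control and 0.247 CPM in C57, and the strand setting of the counting is not given in the sources used here. Reads of such pairs could not be told apart if strand was ignored. Dll1 shares 867 exon bases with A930024N18Rik, at 2.35 CPM in control and 2.64 CPM in C57.

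The comparison of Yap CKO with C57 shares its C57 libraries with the one before it, so it is no independent repeat. Here 2 of the 10 genes rose (Notch1 and Dll4) and 2 fell (Jag1 and Hes5), where 40.5% of the 15840 genes tested passed, 20.3% higher and 20.2% lower. The same 4 genes were those with an unadjusted p under 0.05 (50.2% of all genes) and those whose groups did not overlap, 2 higher and 2 lower, against 30.3% and 24.8% of all genes (55.1% together). Notch1 averaged 66.1 ± 11.9 CPM in Yap CKO against 21.9 ± 6.56 CPM in C57 (SD, n = 3 each) and rose 2.93-fold (log2 fold change 1.55, SE 0.227, edgeR adjusted p = 0.00121). This was the one call of the comparison that was kept whichever library was left out, with adjusted p-values up to 0.00979. Jag1 averaged 23.8 ± 14.6 CPM in Yap CKO against 66.6 ± 12.1 CPM in C57 (SD, n = 3 each). Its 2.88-fold fall lay just past the threshold (log2 fold change -1.53, SE 0.504, edgeR adjusted p = 0.0497). It was lost without C57 1, C57 2, the unnumbered C57 library or Yap CKO 2, at adjusted p-values of 0.162, 0.0899, 0.221 and 0.128.

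Dll4 averaged 2.48 ± 0.832 CPM in Yap CKO against 1.04 ± 0.337 CPM in C57 (SD, n = 3 each), a 2.34-fold rise (edgeR adjusted p = 0.0242). The call was lost without C57 2, the unnumbered C57 library, Yap CKO 2 or Yap CKO 3, at adjusted p-values of 0.0993, 0.0619, 0.0591 and 0.0639. Hes5 averaged 1.65 ± 0.263 CPM in Yap CKO against 3.13 ± 1.45 CPM in C57 (SD, n = 3 each), a 1.93-fold fall (edgeR adjusted p = 0.0483). It was lost without C57 1, C57 2, Yap CKO 1, Yap CKO 2 or Yap CKO 3, at 0.145, 0.0763, 0.120, 0.151 and 0.0669. Dll1 at a log2 fold change of 0.60 (edgeR adjusted p = 0.1001) and Notch2 at -0.057 did not pass. With the rod level as a covariate none of the 10 was called, with Notch1 at 1.13, Hes5 at -1.26, Dll4 at 0.33 and Jag1 at 0.39. Heyl, at -0.68 with all libraries, was called lower without the unnumbered C57 library (log2 fold change -1.02, edgeR adjusted p = 0.0188).

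The receptors, ligands and repressors were also set against the Müller glia markers of the same library, as the log2 CPM of a gene minus the mean log2 CPM of the 18 markers. This measures a gene against other transcripts of that cell type and does not show which cells hold it. For Yap CKO against control, Hes5 was the only gene of the 10 without overlap, with relative levels of -6.23, -6.24 and -6.19 in Yap CKO and -6.62, -6.50 and -6.83 in control (difference 0.43). Of all genes 4.98% were above in that way and 6.03% below. The exact permutation test gave p = 0.1 for Hes5, the smallest p that 3 against 3 libraries allow. For control against C57, 6 of the 10 were above and 2 below without overlap, where 60.5% of all genes were above and 10.3% below. Notch1 differed by 2.42, Hes1 by 0.84, Hes5 by -0.72 and Jag1 by -1.41 on this scale, each with an exact p of 0.1. The value for Hes5 depended on the markers. Against 5 of them it was -0.30, with overlap and an exact permutation p of 0.7. For Yap CKO against C57, 6 were above and 1 below (Jag1), where 56.0% of all genes were above and 7.75% below.

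The level of rod markers differed widely among the 6 P60 libraries. Its mean log2(CPM + 1) was 9.41, 8.57 and 5.62 in Yap CKO libraries 1 to 3 and 9.31, 7.21 and 8.38 in control libraries 1 to 3. It moved with several of these 10 genes, but the relation was not computed over all genes. Whether such a relation is more common among these 10 than among all genes is therefore not known. Jag1 followed the rod level upwards (Pearson's r = 0.931, permutation p = 0.00556, adjusted over the 10 genes 0.0185; Spearman's rho = 0.943, permutation p = 0.0167, adjusted 0.0556). Notch3 ran against it (r = -0.955, exact permutation p = 0.00139, adjusted 0.0139; rho = -1, p = 0.00278, adjusted 0.0278). Dll4 also ran against it (r = -0.939, exact permutation p = 0.00417, adjusted 0.0185; rho = -0.943, p = 0.0167, adjusted 0.0556).

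Without control 2 and Yap CKO 3, the libraries farthest from the median rod level, r was 0.719 for Jag1, -0.883 for Notch3 and -0.666 for Dll4, with the same sign in 4 libraries. Within Yap CKO and within control the sign was that of the pooled value for all 3 genes, with 3 libraries each and no test. Heyl had an r of -0.873 (exact permutation p = 0.0181, adjusted 0.0451) and a rho of -0.714 (p = 0.136, adjusted 0.194), and its r dropped to -0.347 without those libraries, so that relation rests on them. Hes1 had an r of -0.832 (exact permutation p = 0.0389, adjusted 0.0778) and a rho of -0.714 (p = 0.136, adjusted 0.194), with r at 0.077 without them. The r of the other 5 genes ran from -0.509 for Notch1 to 0.730 for Dll1, with adjusted p-values of 0.181 or more by permutation.

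Yap CKO 3, at the low end, also had the highest endothelial sum (878 CPM, against 540 and 571 CPM in the other Yap CKO libraries and 597 to 618 CPM in control). Its sum of 13 mural cell markers was the lowest, 232 CPM against 261 to 530 CPM in the other P60 libraries, but this came from Vtn, at 40.0 CPM in Yap CKO 3. Vtn had 383 and 201 CPM in the other Yap CKO libraries and 320, 79.3 and 170 CPM in control 1 to 3, in the same order as the rod level. The other 12 mural markers summed to 192 CPM in Yap CKO 3, the highest of the P60 libraries, against 147 and 169 CPM in the other Yap CKO libraries and 162 to 182 CPM in control. No endothelial or mural marker was at 0 in any library, and the pericyte marker Rgs5 averaged 112 CPM in Yap CKO, 104 CPM in control and 117 CPM in C57. The part of these cell types, of the lens transcripts and of the rod level in the levels of Jag1, Notch3 and Dll4 was not tested.

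**Figure D3:**
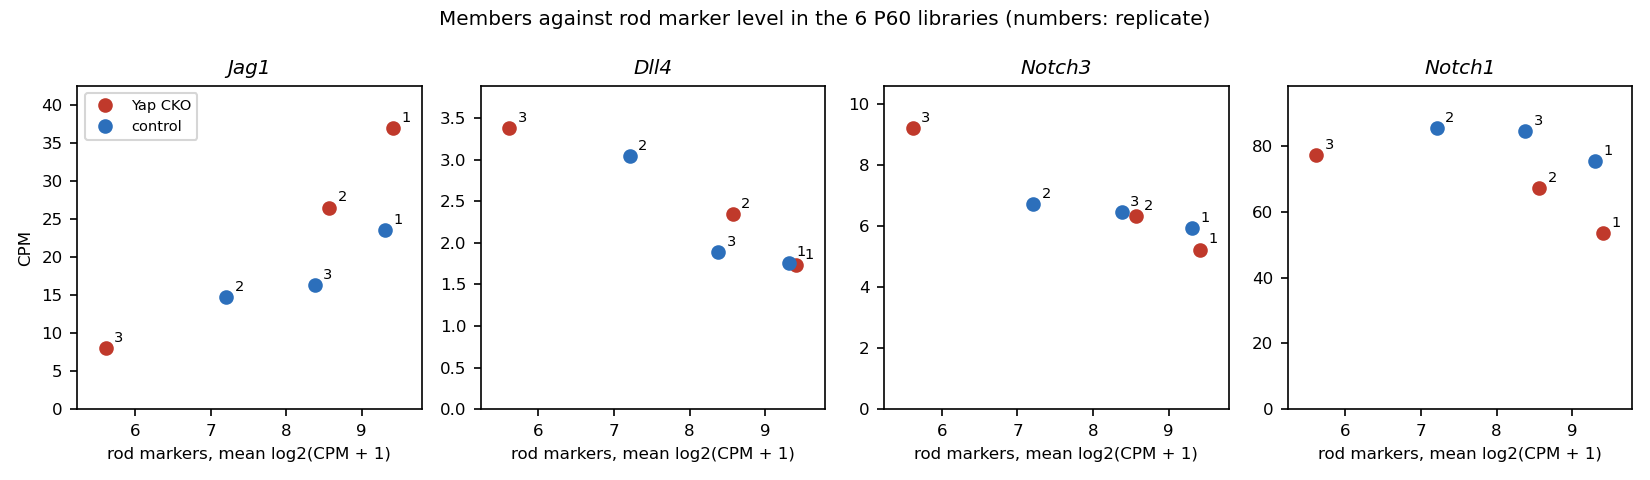
CPM of Jag1, Dll4, Notch3 and Notch1 (vertical axes, from 0) against the mean log2(CPM + 1) of 20 rod markers in the 3 Yap CKO and 3 control libraries, numbered by replicate. Jag1 is lowest, at 8.04 CPM, and Notch3 and Dll4 are highest, at 9.20 and 3.38 CPM, in Yap CKO 3, which has the lowest rod level.

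Beyond the 10 genes, 61 other genes of the pathway were described by role. The list and all counts of it also take in Bhlhe40, Bhlhe41 and Id1 to Id4, helix-loop-helix regulators that are not Notch pathway components. In Yap CKO against control 0 of the 60 tested passed edgeR's test, with 12 at an unadjusted p under 0.05, where 17.8% of all genes were. DESeq2 called 2 higher and 2 lower, where it called 922 of all 16539 genes. The smallest p belonged to Furin, a protease that processes Notch receptors, with 71.3, 76.5 and 80.1 CPM in Yap CKO against 107, 111 and 101 CPM in control. Every Yap CKO library was lower, and the log2 fold change of -0.48 (SE 0.070) missed the threshold at an edgeR adjusted p of 0.0533. Lfng, a glycosyltransferase that modifies Notch receptors, had 4.31, 4.24 and 8.75 CPM in Yap CKO against 3.58, 2.82 and 4.17 CPM in control (log2 fold change 0.71, SE 0.315, edgeR adjusted p = 0.299). The authors' deposited table lists Lfng for Yap CKO over control with a log2 fold change of 0.72 and an adjusted p of 0.506.

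In control against C57, 17 of 58 other pathway genes rose and 9 fell, where 23.1% of all genes rose and 22.4% fell. Of the other receptors and ligands 4 of 6 rose, among them Notch4, an endothelial receptor, at 12.8 ± 2.60 CPM in control and 3.35 ± 1.82 CPM in C57, and Jag2, a second Jagged ligand, at 27.6 ± 2.39 CPM in control and 10.7 ± 6.49 CPM in C57 (SD, n = 3 each). The 3 glycosyltransferases that changed, Pofut1, Lfng and Rfng, all fell, and Lfng had 3.52 ± 0.680 CPM in control against 9.16 ± 2.48 CPM in C57. The gamma-secretase subunits Psenen, Aph1a and Aph1b fell as well, Psenen to 17.8 ± 0.680 CPM in control against 43.2 ± 7.03 CPM in C57 (log2 fold change -1.31, SE 0.137, edgeR adjusted p = 0.000265). Furin rose, to 106 ± 4.66 CPM in control against 33.1 ± 13.5 CPM in C57.

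In the nucleus the corepressor genes Tle1, Tle3 and Ctbp1 rose and the deacetylase gene Hdac1 fell. Rbpj, the DNA-binding partner of the receptor fragment, had 33.2, 31.0 and 30.5 CPM in control against 36.3, 46.9 and 52.4 CPM in C57 and fell (log2 fold change -0.55, edgeR adjusted p = 0.0178). Nrarp, a Notch-induced feedback inhibitor, had 3.02, 3.42 and 3.24 CPM in control and 8.80, 9.23 and 9.44 CPM in C57. The groups were far apart and even within themselves, with a log2 fold change of -1.54 (SE 0.144, edgeR adjusted p = 0.000171). In Yap CKO Nrarp had 2.78, 2.76 and 3.93 CPM, a log2 fold change of -1.58 over C57 (SE 0.207, edgeR adjusted p = 0.000717). The ubiquitin ligase genes Dtx3l, Dtx1 and Fbxw7 rose in control, and so did Bhlhe40, Id1 and Id4, helix-loop-helix regulators outside the Hes and Hey families. These 3 regulators are among the 17 genes counted as rising.

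In Yap CKO against C57, 17 of 57 other pathway genes rose and 9 fell, where 20.3% of all genes rose and 20.2% fell, with the same C57 libraries on the other side. Dtx3l had 16.6 ± 3.67 CPM in Yap CKO and 6.57 ± 0.815 CPM in C57, and Id1 had 18.6 ± 2.48 CPM in Yap CKO and 3.997 ± 2.196 CPM in C57 (SD, n = 3 each). Rbpj fell there too (log2 fold change -0.74, SE 0.169, edgeR adjusted p = 0.00920). Lfng, at 5.77 ± 2.58 CPM in Yap CKO, did not pass (log2 fold change -0.71, edgeR adjusted p = 0.116). The authors' deposited table lists Lfng for Yap CKO over C57 with a log2 fold change of -0.71 and an adjusted p of 0.0441, under the threshold.

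**Figure D4:**
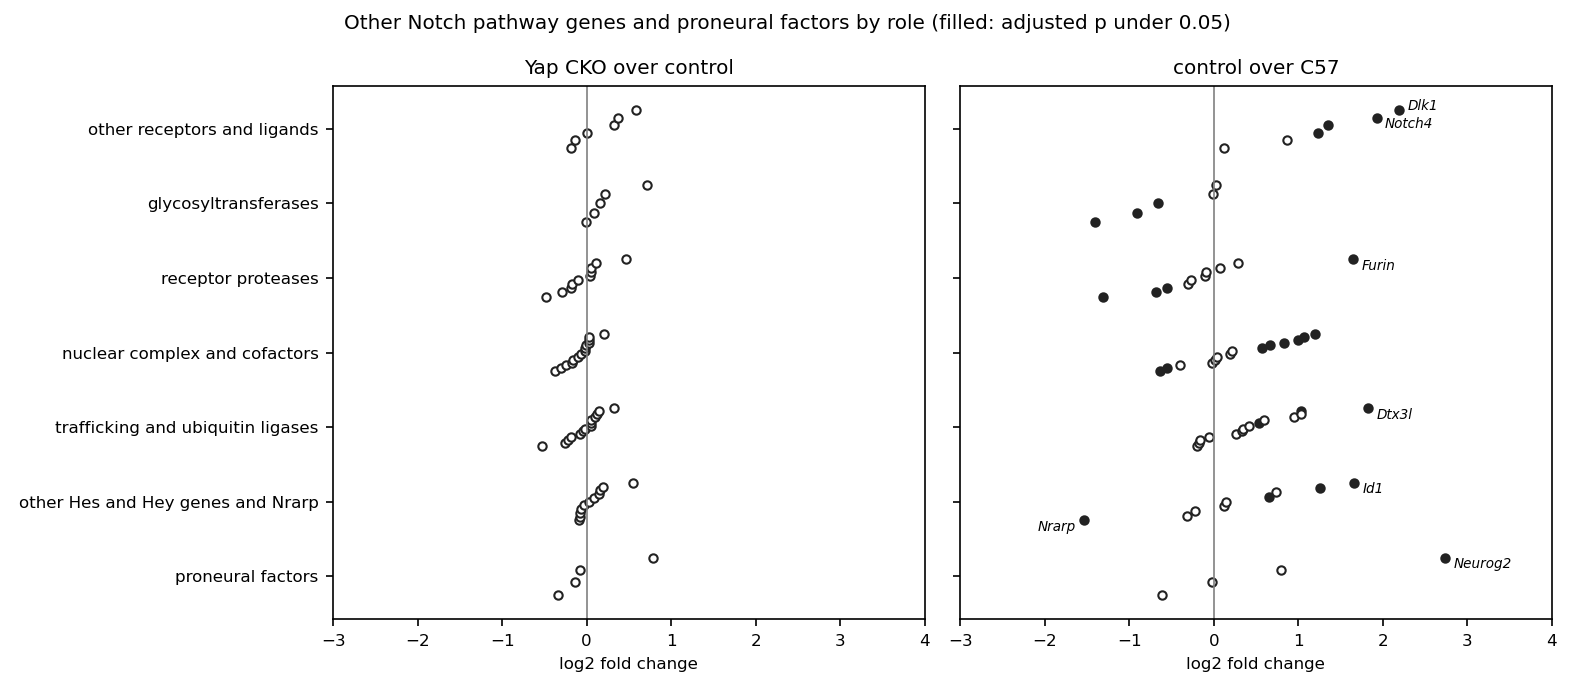
edgeR log2 fold changes (horizontal axis) of the other pathway genes and the proneural factors, arranged by role from receptors at the top to proneural factors at the bottom, for Yap CKO over control and control over C57, with filled points where the adjusted p was under 0.05. The left panel has no filled point, and in the right panel Neurog2 lies at 2.74 and Nrarp at -1.54.

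Proneural genes, which Hes proteins repress, were described from a list of 7, of which 4 passed the filter on low counts. Neurog2, a proneural transcription factor, had 18.2, 23.5 and 33.1 CPM in Yap CKO, 11.3, 17.7 and 14.5 CPM in control and 1.68, 1.59 and 3.05 CPM in C57. It rose in control over C57 (log2 fold change 2.74, SE 0.292, edgeR adjusted p = 0.000295) and in Yap CKO over C57 (log2 fold change 3.51, SE 0.325, edgeR adjusted p = 0.000151). Every Yap CKO library was above every control, and the log2 fold change of 0.78 (SE 0.261) did not pass at an edgeR adjusted p of 0.202. The other 3 passed in no comparison. Among them Neurod1, a neuronal differentiation factor, had log2 fold changes of -0.61 in control and -0.70 in Yap CKO over C57, and Neurod4 had -0.021 and -0.37 in the same comparisons.

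The genes most like Notch1, Hes1 and Hes5 across the 9 libraries were found by the root mean square difference of log2(CPM + 1) after centring each profile on its own mean, over 15547 genes. For Notch1 they were Itga3 (difference 0.0716, where the spread of Notch1 itself was 0.857), Sema5b (0.0772) and Myh9 (0.0950). Itga3, an integrin subunit gene, had 45.7, 54.4 and 62.1 CPM in Yap CKO, 62.5, 74.9 and 65.3 CPM in control and 25.6, 15.4 and 14.5 CPM in C57. The same 3 genes were nearest to Notch1 with a pseudocount of 0.1. For Hes1 they were Tmprss11d, Gm2136 and Pcdh17, at differences of 0.0963 to 0.107 against a spread of 0.256, and for Hes5 they were Pigs, B3galt4 and Pla2g2f, at 0.109 to 0.115 against a spread of 0.421. With the pseudocount of 0.1, Pcdh17 stayed among the 3 nearest to Hes1 and none of the 3 did for Hes5.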

How the data were processed

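Bulk RNA sequencing of 9 whole-retina libraries, 3 for each of 3 groups, was analysed. Per the submitters' processing notes, which give no roles, the tools were HISAT2 2.1.0, featureCounts and edgeR and the build was GRCm38; the sources used here give neither the annotation release nor the strand setting. The deposited table holds whole-number counts per gene, not normalized, for 47729 identifiers, of which 47224 were matched to symbols in GENCODE M21. One C57 column carries a number that matches no sample description; it is called the unnumbered C57 library. Log2 fold changes, p-values and adjusted p-values of 305 genes come from the authors' deposited comparison table, and 9 per-library and 8 group-mean columns of that table were not used.

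Each comparison was fitted on its 6 libraries with edgeR 4.0.16 (R 4.3.3; filterByExpr minimum count 10 and minimum total 15, TMM, robust quasi-likelihood F-test), with Benjamini-Hochberg adjustment over all genes tested and a threshold of 0.05. CPM were scaled by TMM over all 9 libraries, so their ratios can differ slightly from the fitted folds. Levels relative to Müller glia markers used a prior count of 2 and two-sided exact permutation tests, and the rod relation used exact two-sided permutations with log2(CPM + 1).

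All 10 genes are named. Of other lists the genes named come from up to 4 per comparison with the smallest p among those that passed (or the 1 with the smallest p); Rbpj and the deposited-table values were added after their values were seen. The members and lists were chosen with earlier results of these data known. The fit was tested on simulated data. Alternatives were other scalings, filters and tools (DESeq2 1.42.0, limma-voom from limma 3.58.1), a joint fit, bias-adjusted deviances, sex, thinned depth, leaving out each library, a replicate block and, added later, the rod level. No pair of replicates looked like 1 library deposited again (chi-square per degree of freedom 24.2 to 144 over genes). The planned protein comparison was not made, as no protein sequences were used here.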

Additional observations from a re-analysis of the deposited data

How the results depend on the processing

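For Yap CKO against control, the count of the 10 genes called was 0 under every alternative except the rod level covariate, which called 1 (Notch1, lower). Over all genes, 33 calls became 15 with RLE scaling, a filter of 1 CPM in 3 libraries, limma-voom or bias-adjusted deviances, 17 with upper-quartile scaling, 343 with no count filter, 922 with DESeq2, 60 in one fit over all 9 libraries, 67 with sex and 1650 with the rod level as a covariate, and 0 to 1473 when single libraries were left out. Of the other pathway genes, 1 higher and 1 lower were called with no count filter, 2 and 2 with DESeq2, 1 and 4 with the rod level, and up to 1 and 2 without single libraries. With sex as a covariate, which sets Yap CKO 3 alone against the controls, the log2 fold change of Jag1 was -1.17 and that of Hes1 0.37. Without single libraries it ran from -0.064 to 0.81 for Jag1, -0.41 to 0.040 for Hes1, -0.14 to 0.29 for Notch3 and -0.13 to 0.45 for Dll4; relative to Müller markers from -0.26 to 0.96 for Jag1 and from -0.26 to 0.045 for Hes1, and that of Hes1 was 0.075 with 5 markers.

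For control against C57, the sex covariate left 1 gene of the 10 higher and 1 lower, 7 other pathway genes higher and 3602 genes in all. The rod level left 0 higher and 0 lower among the 10 and among the other pathway genes, and 223 genes in all; Notch3 was then at -0.016, Dll4 at -0.23 and Hes1 at -0.043, while the called genes Notch1 (1.65), Dll1 (2.07), Hes5 (-1.07), Jag1 (-0.98) and Notch2 (0.19) kept their direction. Without a scaling factor Hey1 was at 0.17. Leaving out single libraries gave 2 to 5 higher and 2 to 3 lower of the 10, 10 to 23 higher and 7 to 12 lower of the other pathway genes, 5084 to 9255 genes in all, and -0.11 to 0.53 for Notch3. For Yap CKO against C57, 1 of the 10 was lower with RLE scaling, no count filter, limma-voom, sex or thinned depth, and 0 with upper-quartile scaling or no scaling factor, which added Dll1 as higher (0.96, adjusted p = 0.0156). Genes called in all were 6425 with RLE scaling, 6430 with no count filter, 6654 with limma-voom, 5860 with sex and 5957 with thinned depth. They were 6396 with upper-quartile scaling and 7961 with no scaling factor. Thinned depth left 1 higher. The rod level left 0 higher and 0 lower, with 0 higher and 1 lower of the other pathway genes and 1052 genes in all, and gave Notch3 -0.51, Jag1 0.39 and Hes1 -0.62, with Notch1 at 1.13 and Hes5 at -1.26. Hey1 was at -0.0018 with RLE scaling and -0.0015 with DESeq2 or the joint fit. Notch2 was at 0.0033 with no count filter and 0.31 without a scaling factor. The fit without a scaling factor raised the median of all genes by 0.36 on the log2 scale. It called 7961 of 15840 genes in either direction, and 27 other pathway genes as higher. Leaving out single libraries gave 1 to 3 higher and 0 to 2 lower of the 10, 6 to 22 higher and 7 to 10 lower of the other pathway genes and 3905 to 8013 genes in all, with Notch2 from -0.17 to 0.063, Notch3 from -0.013 to 0.63, Hes1 from -0.072 to 0.38 and Hey1 from -0.045 to 0.029. Relative to Müller markers, Hes5 ran from -0.52 to 0.018, and was at 0.30 with 5 markers. With those 5 markers 2 of the 10 (Hes5 and Hey1) were above in Yap CKO against control. Below were 1 (Jag1) in control against C57 and 0 in Yap CKO against C57. Without single libraries 1 to 3 were above and 0 to 2 below in Yap CKO against control. The ranges were 6 to 7 above and 2 to 3 below in control against C57, and 6 to 7 above and 1 to 3 below in Yap CKO against C57. For these marker settings the share over all genes was not computed, so the counts cannot be set against it. The cause of the changes between settings was not tested.

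Same-numbered Yap CKO and control libraries correlated at 0.392, -0.028 and 0.046 in their deviations from the group means, so the numbers were not shown to pair them, and control 2 correlated best with Yap CKO 3 (0.355). The replicate block called 45 genes and 0 of the 10 in Yap CKO against control. Against C57 the block kept only the libraries numbered 1 and 2, and nothing in the labels says that equal numbers pair them. Same-numbered libraries correlated with C57 at -0.035 and 0.00063 for control 1 and 2, and at 0.012 and -0.118 for Yap CKO 1 and 2. The block was thus not shown to be a pairing. It called 5850 genes for control and 5642 for Yap CKO, with Notch3 at -0.10 and -0.24, Hes1 at -0.073 and Hey1 at -0.032 for Yap CKO. For control the block lost Notch2 (adjusted p = 0.0715) and gained Heyl (-1.22, adjusted p = 0.00439). For Yap CKO it lost Dll4 (adjusted p = 0.100233) and gained Dll1 (0.66, adjusted p = 0.0499) and Heyl (-1.17, adjusted p = 0.00401). Hes5 rests on 30 to 77 reads per library and Dll4 on 11 to 17 reads in C57.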
